A study of Mus musculus with 6 samples.

Results

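The genes described here encode the subunits of the ionotropic glutamate receptors and of the GABA-A receptors, the ligand-gated channels of fast excitatory and inhibitory signalling. They were picked by symbol alone. Of 23366 genes listed in each of 6 mouse palatal shelf libraries, 37 carried such a symbol, 18 of them glutamate receptor subunits and 19 GABA-A or rho subunits. The palatal shelves are the paired outgrowths that fuse into the secondary palate, and they were taken from E14.25 embryos. One group held 3 wild type (WT) libraries, numbered 2, 3 and 4 in the titles, and the other held 3 libraries of genotype Kmt2d fl/fl Wnt1-Cre (KO), numbered 1, 2 and 3. Kmt2d encodes a histone H3 lysine methyltransferase. Wnt1-Cre recombines floxed alleles in the neural crest lineage, so epithelium, endothelium and other cells from outside the crest keep the gene. The labels do not say whether the WT embryos carried a floxed allele or Cre, or how many embryos went into a library. The labels name no treatment for either group. The comparison asks how loss of Kmt2d from the neural crest changes the expression of these subunits in the palate.

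Ionotropic glutamate receptors are assemblies of 4 subunits that fall into AMPA (Gria), kainate (Grik), NMDA (Grin) and delta (Grid) types. AMPA channels carry most fast excitatory current in the brain, and the edited Gria2 subunit keeps calcium out of them. NMDA channels need the Grin1 subunit and bind glycine as well as glutamate. GABA-A receptors are pentameric chloride channels, in the brain most often built of alpha, beta and gamma subunits. GABA signalling also has a place in palate biology, because mice that lack Gad1 are known to have cleft palate. In bulk tissue, fewer cells of a type and less RNA per cell cannot be told apart, and the same holds for more cells and more RNA per cell.

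Between 12721979 and 24916079 read pairs were assigned to genes per library. KO replicate 2 stood apart: it had the lowest total, and 47.5% of its listed pairs lay outside genes, against 12.3% to 18.1% in the other libraries. It also held Ttn, the giant muscle protein titin, at 10160 CPM, a gene's counts scaled to the normalised size of its library, against 66.3 to 191 elsewhere. Results are therefore given with and without it. WT replicate 3 and KO replicate 2 were high in Xist, the RNA of the silenced X chromosome, so each group held 1 such library. Kmt2d, listed as Mll2, measured 193 ± 20.6 CPM in WT and 329 ± 184 CPM in KO (SD, n = 3 each). Its log2 fold change was 0.77 with an adjusted p of 0.368, and 0.21 with an adjusted p of 0.519 without KO replicate 2. A count over the whole gene does not check the deletion, because it takes in reads from outside the removed part. Of 14 palatal mesenchyme markers all were detected, and the defining one, Osr2, stood at 60.8 ± 10.8 CPM in WT and 56.1 ± 10.5 CPM in KO.

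Of the 37 subunits, 27 had enough counts to be tested (16 of 18 glutamate receptor and 11 of 19 GABA-A and rho subunits). The others, which stayed at 11 counts or fewer in every library, were Gabra5, Gabra6, Gabrd, Gabrg1, Gabrq, Gabrr1, Gabrr2, Gabrr3, Grin2c and Grin3b. With all libraries, 2 of the 27 rose in KO at an adjusted p under 0.05 over all 14233 genes tested, the AMPA subunit Gria4 and the GABA-A alpha subunit Gabra3. None fell by edgeR's quasi-likelihood test, and 0 had an unadjusted p under 0.05 in that direction, where 6.69% of all genes did. Of all genes tested, 0.0984% were called higher and 0.436% lower. Without KO replicate 2, 5 subunits were called higher and 0 lower, against 0.554% and 1.57% of all genes. These were Gria2, Gria3, Gria4, Grin3a and Gabra3. DESeq2 called 8 of the 27 higher and 0 lower with all libraries. The call of 2 held in none of the fits that left out a library other than KO replicate 2, each of which called 0 subunits. In those 5 fits, the adjusted p was 0.0602 to 0.229 for Gria4 and 0.0682 to 0.277 for Gabra3. Across all genes they called 0 genes without WT replicate 2 or WT replicate 3 and 3, all lower, without WT replicate 4. They called 2 higher and 18 lower without KO replicate 1 and 1 higher and 10 lower without KO replicate 3, against 14 and 62 with all libraries.

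As a list, 23 of the 27 tested subunits had a log2 fold change above 0, where 51.5% of all genes did. Their median was 0.73, against 0.01 over all genes. Of the 27, 19 cover 100 kb or more of genome. Among other genes, 64.0% of those of 100 to 300 kb and 78.7% of those of 300 kb or more were above 0. Without KO replicate 2, 22 of the 27 subunits were above 0 (53.3% of all genes) and the median was 0.39, against 0.02. An unadjusted p under 0.05 with a higher KO level was measured for 12 of the 27 with all libraries and for 10 without KO replicate 2, where 7.51% and 7.22% of all genes had one. No subunit had one with a lower KO level without KO replicate 2, against 9.27% of all genes. For 11 of the 27, every KO library lay above every WT library, which was the case for 12.3% of all genes. The median over the tested subunits of the log2 difference from the WT mean, on the log2(CPM + 0.5) scale, was 0.36 in KO replicate 1, 1.10 in KO replicate 2 and 0.38 in KO replicate 3. In the WT libraries it ran from -0.07 to 0.17. All 3 KO libraries were thus shifted upward, and KO replicate 2 was shifted furthest.

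**Figure D1:**
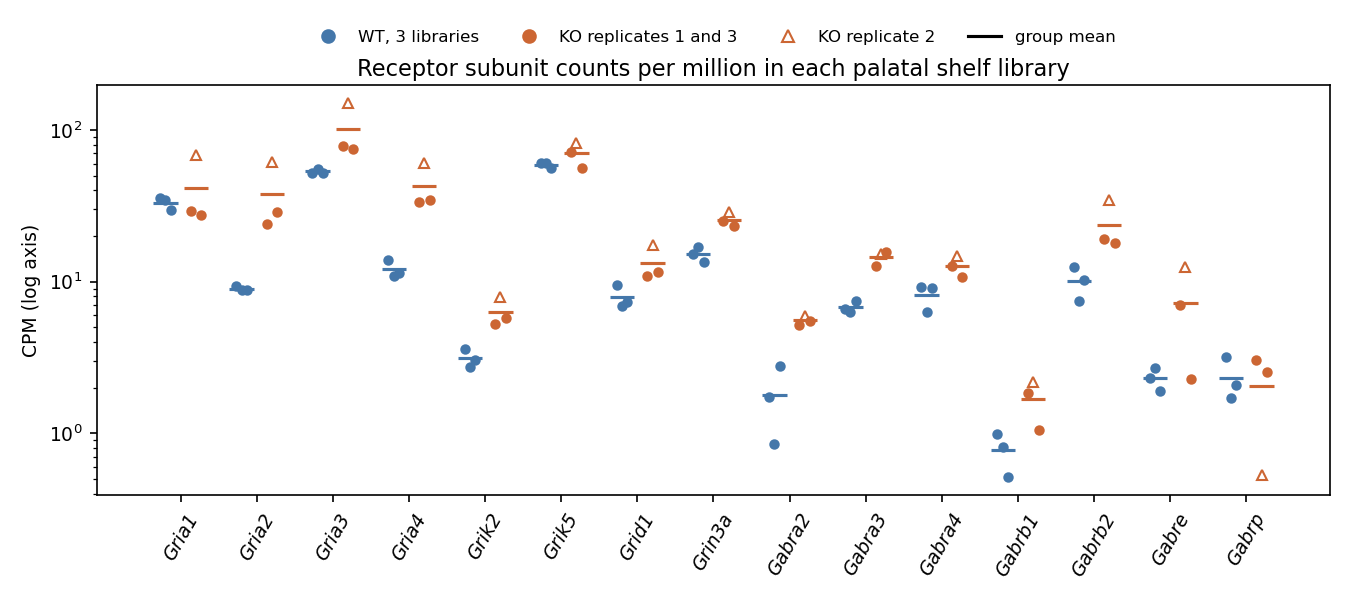
CPM on a log axis in each library for Gria1 and 14 other tested subunits described one by one, with WT as blue points, KO replicates 1 and 3 as orange points, KO replicate 2 as an open triangle and bars for the group means. The KO points of Gria2, Gria3, Gria4, Grin3a and Gabra3 all lie above the WT points, and those of Gria1, Grik5, Gabre and Gabrp overlap them.

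Among the AMPA subunits, Gria4, a subunit abundant in early brain development, measured 13.9, 10.9 and 11.3 CPM in WT replicates 2, 3 and 4 and 33.3, 60.1 and 34.3 CPM in KO replicates 1, 2 and 3. The lowest KO library was more than double the highest WT library, and KO replicate 2 was the highest of all. The group means were 12.1 ± 1.62 and 42.6 ± 15.2 CPM (SD, n = 3 each), a 3.52-fold difference (log2 1.82 ± 0.25 SE, adjusted p = 0.0389). Without KO replicate 2 the difference was 2.78-fold (log2 1.47 ± 0.13 SE, adjusted p = 0.000531).

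Gria2, the subunit whose edited form blocks calcium entry, measured 9.29, 8.78 and 8.74 CPM in WT and 23.9, 61.3 and 28.8 CPM in KO. The WT libraries lay close together, while the KO libraries were all higher and spread widely, with KO replicate 2 again on top. The means of 8.94 ± 0.306 and 38.0 ± 20.3 CPM differed 4.24-fold (log2 2.09 ± 0.34 SE), the largest fold among the 27 tested subunits, with an adjusted p of 0.0601. Without KO replicate 2 it rose 2.93-fold (log2 1.55 ± 0.13 SE, adjusted p = 0.000502).

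Gria3, encoded on the X chromosome, measured 52.1, 55.4 and 52.3 CPM in WT and 78.2, 150 and 75.2 CPM in KO. The groups did not overlap, and WT replicate 3 and KO replicate 2, the libraries high in Xist, were the highest of their groups. With all libraries the log2 difference of 0.92 ± 0.26 SE did not pass the test (adjusted p = 0.225), but that of 0.52 ± 0.08 SE without KO replicate 2 did (adjusted p = 0.00876). With both Xist-high libraries left out it was 0.54 (adjusted p = 0.0431).

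Gria1, given although it fell outside the naming rule and chosen after its values were seen, measured 35.7, 34.3 and 29.4 CPM in WT and 29.1, 68.2 and 27.4 CPM in KO. It was the AMPA gene in which KO replicates 1 and 3 lay below all WT libraries while KO replicate 2 lay above them. The log2 fold change was 0.32 ± 0.34 SE (adjusted p = 0.665), and -0.24 ± 0.11 SE without KO replicate 2 (adjusted p = 0.317). The 4 AMPA genes together summed to 102 to 111 CPM in the WT libraries and to 165, 339 and 166 CPM in KO replicates 1, 2 and 3.

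The counts of 1 AMPA gene divided by those of another in the same library do not depend on how libraries are scaled. Gria1 was taken as the denominator after its values were seen, so the ratios are a description. The ratio of Gria4 to Gria1 counts was 0.390, 0.319 and 0.385 in WT and 1.14, 0.881 and 1.25 in KO. The ratio of Gria2 to Gria1 was 0.260, 0.256 and 0.297 in WT and 0.822, 0.899 and 1.05 in KO. That of Gria3 to Gria1 was 1.46, 1.61 and 1.78 in WT and 2.69, 2.20 and 2.75 in KO. In each of the 3 ratios the groups were well apart and KO replicate 2 lay with the other KO libraries or between them and WT. Gria2 and Gria4 kept closer company, with ratios of Gria2 to Gria4 of 0.668 to 0.803 in WT and 0.719 to 1.02 in KO, which overlapped.

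Divided by transcript length, Gria1 made up 29.0% to 32.3% of the summed AMPA level in WT and 17.3% to 21.2% in KO. The share of Gria4 was 10.2% to 12.8% in WT and 19.01% to 22.1% in KO, and that of Gria2 was 4.29% to 4.60% and 8.03% to 10.2%. Gria3 was the largest share in all libraries, at 50.4% to 55.0% in WT and 49.7% to 52.4% in KO, ranges that overlap. The shares of Gria1, Gria2 and Gria4 did not overlap between the groups.

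**Figure D2:**
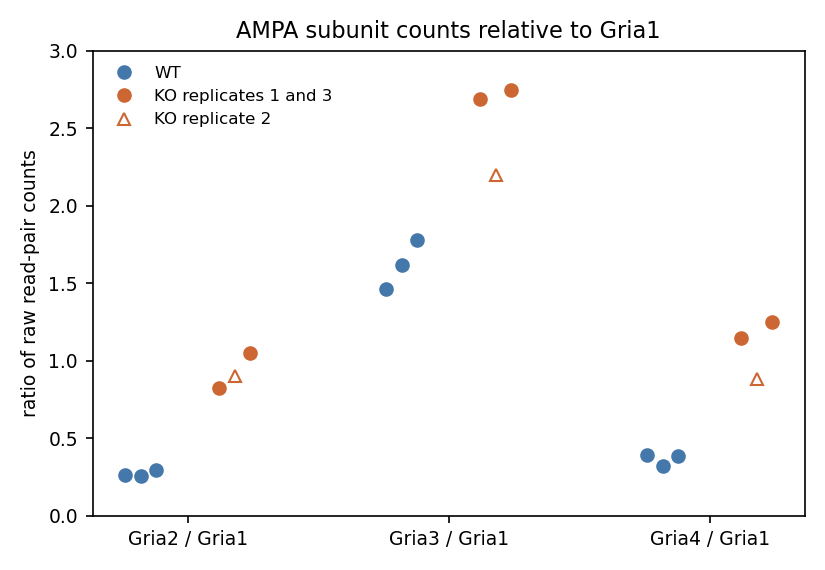
Raw read-pair counts of Gria2, Gria3 and Gria4 divided by the Gria1 count of the same library, with WT as blue points, KO replicates 1 and 3 as orange points and KO replicate 2 as an open triangle. In all 3 ratios the 3 KO libraries lie above the 3 WT libraries, for Gria4 at 0.881 to 1.25 against 0.319 to 0.390.

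The kainate receptors add slower, smaller currents and also act before the synapse. None of the 5 kainate genes passed the test in either fit, and all 5 had positive log2 fold changes, from 0.02 to 1.19 with a median of 0.65 (0.11 to 0.80 with a median of 0.36 without KO replicate 2). Grik2, a subunit able to form channels alone, measured 3.59, 2.73 and 3.06 CPM in WT and 5.25, 7.95 and 5.75 CPM in KO. Its groups did not overlap, and the log2 fold change was 1.004 ± 0.24 SE (adjusted p = 0.175) or 0.80 ± 0.23 SE without KO replicate 2 (adjusted p = 0.124). Grik5, a subunit that must join with Grik1, Grik2 or Grik3, was the most abundant of all subunits per kb of transcript. It measured 60.2, 60.6 and 56.5 CPM in WT and 72.0, 81.7 and 56.5 CPM in KO, and KO replicate 3 lay at the level of the lowest WT library. The log2 fold change was 0.25 ± 0.14 SE (adjusted p = 0.447). Grik1, Grik3 and Grik4 measured 3.36 to 9.29 CPM in WT and 2.72 to 20.7 CPM in KO, and the groups overlapped in each.

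The delta receptors bind cerebellins rather than open to glutamate. Grid1 measured 9.50, 6.90 and 7.32 CPM in WT and 10.9, 17.3 and 11.7 CPM in KO. Each KO library lay above each WT library, by a small margin for KO replicate 1. The log2 fold change was 0.75 ± 0.23 SE (adjusted p = 0.263), and 0.50 ± 0.18 SE without KO replicate 2 (adjusted p = 0.212).

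Among the NMDA subunits Grin3a, an unusual glycine-binding subunit that lowers calcium flow, measured 15.2, 16.8 and 13.5 CPM in WT and 25.1, 28.6 and 23.1 CPM in KO. The groups were clearly apart and KO replicate 2 was only slightly above the other KO libraries. The log2 fold change was 0.75 ± 0.14 SE with all libraries (adjusted p = 0.0859). Without KO replicate 2, Grin3a rose by 0.66 ± 0.13 SE on the log2 scale (1.58-fold, adjusted p = 0.0305). Grin1, which every conventional NMDA receptor needs, was near the limit of testing at 0.603 to 1.07 CPM in WT and 0.387 to 1.21 CPM in KO. Per kb of transcript, the WT level of Grin3a was 2.02 ± 0.219 CPM and that of Grin1 0.184 ± 0.0592 CPM. Grin2a, Grin2b and Grin2d, which bind glutamate, measured 1.25 to 3.62 CPM in WT and 1.44 to 5.98 CPM in KO, with overlapping groups and log2 fold changes of -0.10 to 0.71.

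Of the GABA-A alpha subunits, which shape the binding site for GABA together with beta subunits, Gabra3 measured 6.62, 6.32 and 7.49 CPM in WT and 12.6, 15.2 and 15.6 CPM in KO. KO replicate 2 lay between the other KO libraries, and the lowest KO library was well above the highest WT library. The means of 6.81 ± 0.609 and 14.5 ± 1.65 CPM differed 2.13-fold (log2 1.09 ± 0.16 SE, adjusted p = 0.0436), and 2.06-fold without KO replicate 2 (log2 1.04 ± 0.16 SE, adjusted p = 0.0117). Gabra3 lies on the X chromosome, and the Xist-high WT replicate 3 was the lowest of its group. With both Xist-high libraries left out the log2 fold change was 0.99 (adjusted p = 0.0550), which missed the threshold.

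Gabra2 measured 1.74, 0.851 and 2.80 CPM in WT and 5.19, 5.98 and 5.47 CPM in KO, with the KO libraries close together and all above WT. Its log2 fold change of 1.62 ± 0.39 SE had an adjusted p of 0.174, and that of 1.55 ± 0.38 SE without KO replicate 2 had an adjusted p of 0.0789. Gabra4 measured 9.15, 6.32 and 9.13 CPM in WT and 12.7, 14.8 and 10.7 CPM in KO, also without overlap, and its log2 fold change was 0.63 ± 0.21 SE (adjusted p = 0.285).

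The beta subunits contribute the other face of the GABA site. Gabrb2 measured 12.5, 7.48 and 10.3 CPM in WT and 19.04, 34.3 and 17.9 CPM in KO. The groups did not overlap, and the log2 fold change was 1.23 ± 0.30 SE (adjusted p = 0.174) or 0.86 ± 0.20 SE without KO replicate 2 (adjusted p = 0.0639). Gabrb1 was rarer, at 0.997, 0.807 and 0.517 CPM in WT and 1.83, 2.19 and 1.05 CPM in KO (log2 1.09 ± 0.43 SE, adjusted p = 0.330).

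The gamma subunits tie the receptor to the synapse. Gabrg3 stayed at 17 counts or fewer in each library, and Gabrg1 at 4 or fewer. Gabre, the X-linked epsilon subunit, measured 2.31, 2.69 and 1.89 CPM in WT and 6.96, 12.6 and 2.26 CPM in KO. KO replicate 3 lay within the WT range while the other KO libraries lay above it, and the log2 fold change was 1.64 ± 0.55 SE (adjusted p = 0.289). It was 0.97 ± 0.44 SE without KO replicate 2 (adjusted p = 0.321), which takes the difference from 3.12-fold to 1.96-fold. Gabrp, a subunit found mainly outside the nervous system, measured 3.17, 1.70 and 2.07 CPM in WT and 3.04, 0.530 and 2.54 CPM in KO. KO replicate 2 was its lowest library, and the log2 fold change was -0.16 ± 0.54 SE (adjusted p = 0.906). Gabrr2, the rho gene with the highest WT level per kb, had 2, 2 and 1 counts in WT and 2, 3 and 1 in KO. At 3 counts or fewer no difference was detectable at this depth.

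**Figure D3:**
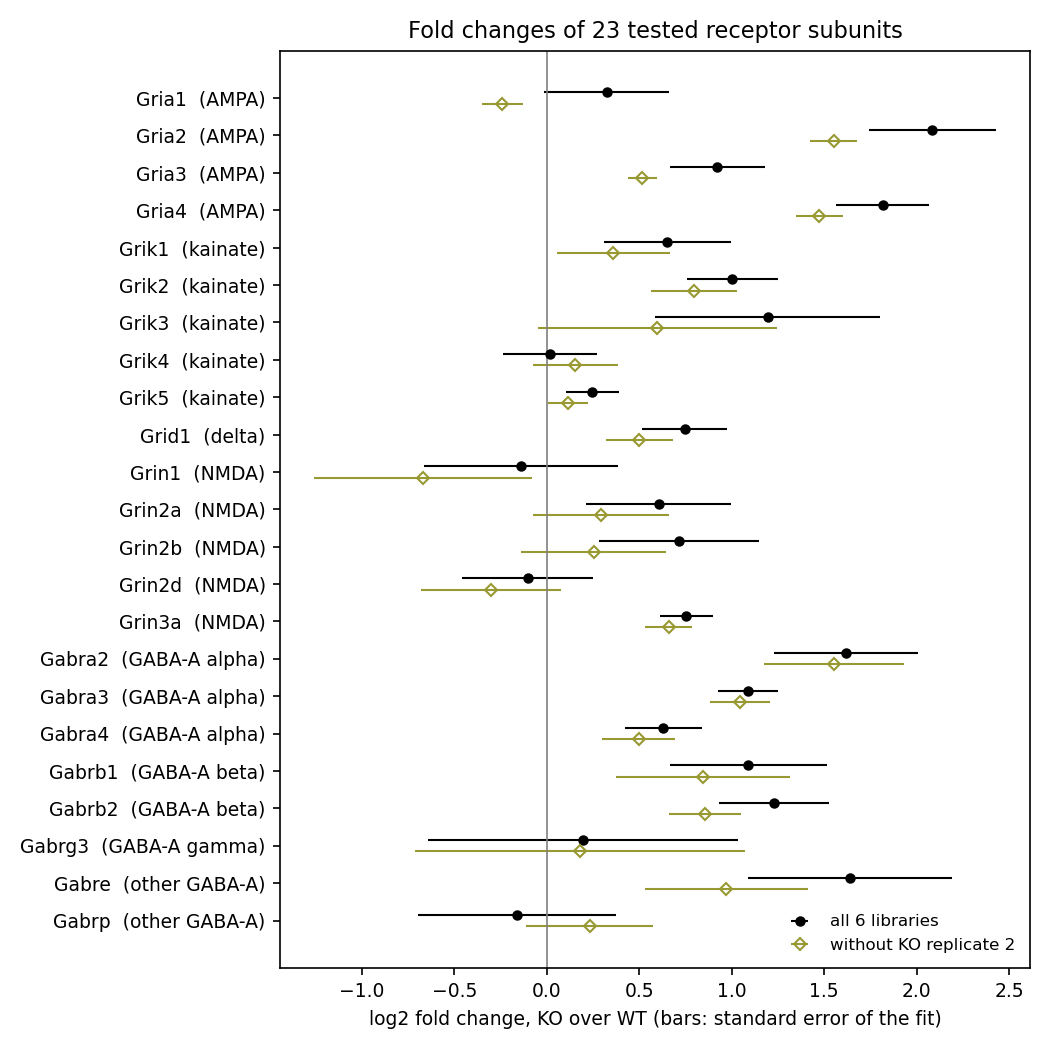
Log2 fold changes of KO over WT with standard errors for 23 of the 27 tested subunits, with all 6 libraries (black) and without KO replicate 2 (olive diamonds). Most points lie right of 0 in both fits, Gria2, Gria4 and Gabra2 lie furthest right without KO replicate 2, and when it is left out Gria1 moves below 0 and Gabrp above it.

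Upstream sequences are shown for Gria4 and Gabra3, the subunits that passed the test with all libraries, and for Gria2, which passed it without KO replicate 2, because KMT2D methylates histones at regulatory DNA and the CG content of a promoter is a basic feature of such DNA. Each is the 250 bases before the annotated start from RefSeq on build GRCm38.p6, read 5′ to 3′ on the minus strand, where all 3 genes lie, with each CG in capitals. The counts were made on mm9, so these windows describe the genes and not the reads.
Gria4, chr9:4796235-4796484: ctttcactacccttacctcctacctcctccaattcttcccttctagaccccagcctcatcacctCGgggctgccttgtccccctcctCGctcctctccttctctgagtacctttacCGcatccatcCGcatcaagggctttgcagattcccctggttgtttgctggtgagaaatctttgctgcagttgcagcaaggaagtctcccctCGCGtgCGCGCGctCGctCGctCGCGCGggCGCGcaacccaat
Gria2, chr3:80802836-80803085: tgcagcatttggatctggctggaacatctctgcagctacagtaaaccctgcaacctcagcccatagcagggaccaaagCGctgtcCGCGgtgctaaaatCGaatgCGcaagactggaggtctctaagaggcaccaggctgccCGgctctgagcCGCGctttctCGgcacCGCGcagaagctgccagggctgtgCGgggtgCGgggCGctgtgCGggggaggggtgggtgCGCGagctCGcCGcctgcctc
Gabra3, chrX:72656920-72657169: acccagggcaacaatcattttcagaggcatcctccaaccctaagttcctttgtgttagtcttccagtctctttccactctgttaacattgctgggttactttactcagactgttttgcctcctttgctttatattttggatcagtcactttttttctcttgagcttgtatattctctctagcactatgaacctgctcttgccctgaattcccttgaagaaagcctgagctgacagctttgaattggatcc
The Gria4 window held 16 CG pairs and the Gria2 window 19, while the Gabra3 window held 0, as did that of its second annotated start. Among 32851 promoters of the same table the median was 6, with 25.4% holding 16 or more and 7.87% holding 0. Entries were matched for 25 of the 37 subunits, with 29 windows, whose median was 9. Of these 29, 10 held 16 or more CG pairs and 2 held 0, both of Gabra3. The letters GGGCGG, sought on both strands, were in 11 of the 29 windows and in 32.7% of all promoters, and in none of the windows of Gria4, Gria2 and Gabra3. The 3 genes shown thus differed widely in CG content in this window.

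GABA-A genes often sit side by side. The clusters on chromosome 5 and the X chromosome are given here. Other clusters are not reported here, so whether neighbours change together is not shown. On chromosome 5, Gabra2, Gabra4 and Gabrb1 neighbour the barely detected Gabrg1, and their log2 fold changes were 1.62, 0.63 and 1.09. On the X chromosome, Gabre and Gabra3, at 1.64 and 1.09 (0.97 and 1.04 without KO replicate 2), lie beside Gabrq, which had at most 3 counts per library. Within chromosome 5, the count ratio of Gabra2 to Gabra4 was 0.135 to 0.307 in WT and 0.405 to 0.513 in KO. Gabra4 and Gabrb1 overlap in the annotation, and without a stated strand setting their counts may be shared in part.

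Per kb of transcript, Grik5 had the highest WT level of the 37 genes, at 15.01 to 16.1 CPM per kb. Gria3 followed at 10.03 to 10.7, and Gria1 at 5.31 to 6.43, and these 3 ranges did not overlap each other. Below them Gabrb2, Gria4, Grin3a, Gabra4 and Gabra3, with means of 2.53, 2.22, 2.02, 1.995 and 1.86, had ranges that overlapped from neighbour to neighbour. Gria2 stood lower, at 0.862 ± 0.0295, in part because the transcript used for it is 10371 bases long. Grik5 joins other kainate subunits to form a channel, and the per-kb levels of Grik1, Grik2 and Grik3 were 1.26, 0.332 and 0.591. The levels rest on 1 annotated transcript per gene, and another transcript would shift them.

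Receptor subunit genes are long, and fold changes differed with the length of genome a gene covers. The tested subunits spanned 18.8 to 1448 kb with a median of 224 kb, against 25.0 kb over 14126 tested genes with a span. The 492 other genes of 300 kb or more had a median log2 fold change of 0.28, and 78.7% of them were above 0. In the 12 subunits of that size the median was 0.72. For spans of 100 to 300 kb the medians were 0.11 over 1655 other genes and 1.19 over 7 subunits. The shorter subunits had medians of 0.25 (5 of 30 to 100 kb) and -0.14 (3 of 10 to 30 kb), against 0.05 and -0.02 for other genes of those spans. Without KO replicate 2 the other genes of 300 kb or more had a median of 0.10 and the subunits 0.33, and for 100 to 300 kb the medians were 0.02 and 0.86. The long genes were thus higher as a class with all libraries, and less so without KO replicate 2.

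With the trend over span removed from each library, the median of the 27 subunits was 0.42. Gria2 and Gria4 were then called (log2 1.96, adjusted p = 0.0271, and log2 1.57, adjusted p = 0.00728), while Gabra3 was at 0.95 (adjusted p = 0.0731). Gria1 covers 319 kb, more than Gria2 at 121 kb and Gria3 at 278 kb and less than Gria4 at 378 kb. Gria1 was chosen after its values were seen, and the part of span in these 4 fold changes was not tested. The part of KO replicate 2's reads outside genes in these values was not tested.

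**Figure D4:**
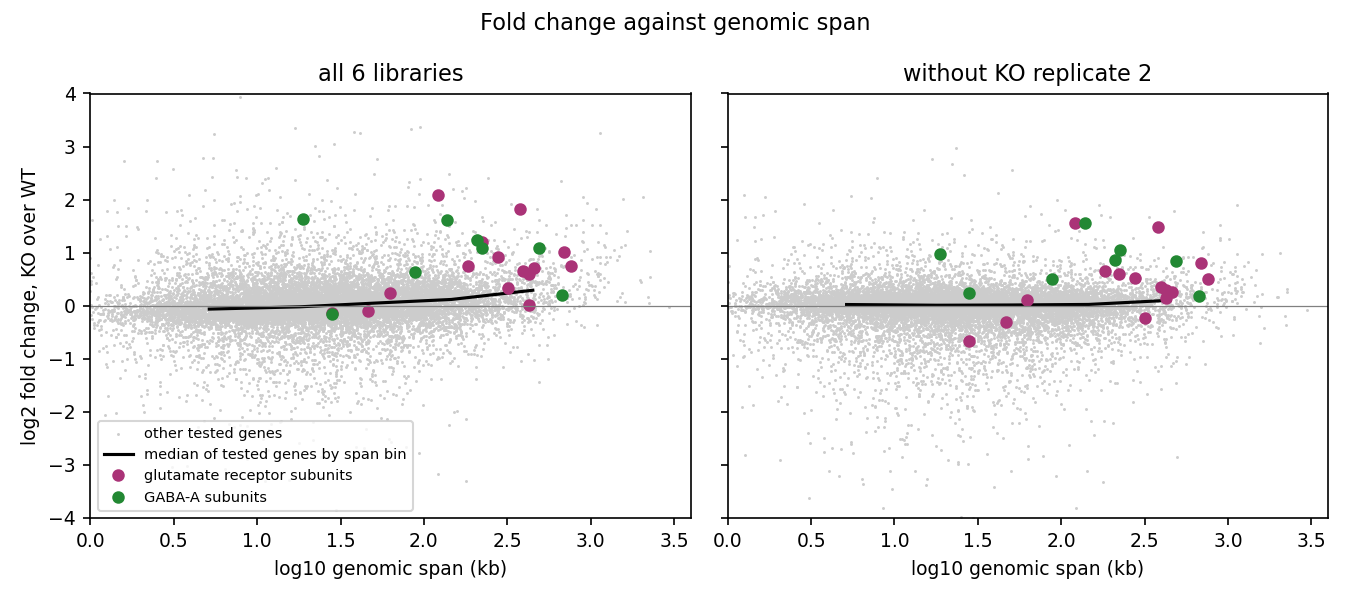
Log2 fold change against log10 genomic span in kb for tested genes, with all libraries (left) and without KO replicate 2 (right); grey points are other genes, purple points glutamate receptor subunits and green points GABA-A subunits (23 in all), and the line joins medians of tested genes in 5 bins of span. The line climbs to the right with all libraries and is flatter without KO replicate 2, most subunits lie above it in both panels, and genes beyond the axis limits are not drawn.

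The genes that work with these receptors were read from 10 lists with 134 symbols, of which 132 were listed and 97 tested. Among the 97, 3 were called higher and 1 lower with all libraries, where 0.0984% and 0.436% of all genes were. The counts without KO replicate 2 were 3 higher and 3 lower, against 0.554% and 1.57% of all genes. In each of the 5 fits that left out another library, WT replicate 2, 3 or 4 or KO replicate 1 or 3, 0 were called in either direction, so the calls named below did not hold there. The median log2 fold change of the 97 was 0.11, or 0.03 without KO replicate 2, and 63 were above 0, where 51.5% of all genes were. The lists differed, with medians of 0.79 for the partners of kainate and delta receptors (0.60 without KO replicate 2) and -0.29 for the AMPA auxiliary subunits (-0.73 without it).

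Of 10 tested partners of kainate and delta receptors, 1 rose. Cbln4, a secreted cerebellin of the family that binds neurexins and delta receptors, measured 1.60, 1.39 and 1.46 CPM in WT and 4.87, 4.77 and 7.35 CPM in KO. All KO libraries lay well above WT, and the log2 fold change was 1.93 ± 0.27 SE (adjusted p = 0.0394). Nrxn2, a presynaptic neurexin, measured 9.40, 9.14 and 7.71 CPM in WT and 3.48, 7.04 and 4.42 CPM in KO. KO replicate 2 lay nearest to WT, and the gene fell without it by 1.15 on the log2 scale (adjusted p = 0.0232), against -0.82 with all libraries (adjusted p = 0.285).

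Of 28 tested genes of the excitatory postsynaptic scaffold, 2 rose and 1 fell, and all 3 are leucine-rich adhesion proteins of the synapse. Lrrtm3 measured 9.65, 12.3 and 10.8 CPM in WT and 22.7, 26.3 and 23.8 CPM in KO (log2 1.15 ± 0.14 SE, adjusted p = 0.0296). Lrrc4c, which binds netrin-G1, measured 8.93, 8.42 and 8.78 CPM in WT and 15.6, 18.5 and 15.4 CPM in KO (log2 0.92 ± 0.14 SE, adjusted p = 0.0478). Lrrc4b, from the same family as Lrrc4c, moved the other way, with 27.1, 30.02 and 25.0 CPM in WT and 14.9, 13.6 and 14.5 CPM in KO (log2 -0.93 ± 0.12 SE, adjusted p = 0.0352). In each of these 3 genes the groups were far apart and KO replicate 2 lay close to the other KO libraries.

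No other list held a call with all libraries. Among the AMPA auxiliary subunits 0 of 10 tested passed and the smallest p was that of the pentraxin Nptx2, which clusters AMPA receptors, with 31, 43 and 19 counts in WT and 0, 2 and 7 in KO (adjusted p = 0.217). The smallest p of the GABA-A scaffold and assembly list (0 of 15) was that of Nlgn2, the neuroligin of inhibitory synapses, at a log2 fold change of 0.33 (adjusted p = 0.323). Abat, which breaks down GABA, had -0.49 (adjusted p = 0.174) and fell by 0.41 on the log2 scale without KO replicate 2 (adjusted p = 0.0434). Gad1 and Gad2, which make GABA, and the vesicular transporters Slc32a1, Slc17a6, Slc17a7 and Slc17a8, which load GABA or glutamate, had at most 21 counts in any library and were too low to test. Gad1, whose mouse mutants have cleft palate, had 6, 0 and 2 counts in WT and 5, 18 and 13 in KO. These enzymes and transporters mark GABA and glutamate neurons.

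In the remaining lists, 0 of 15 tested genes of glutamate synthesis and transport passed, led by the cystine-glutamate exchanger Slc7a11 at -0.75 (adjusted p = 0.163). Of the metabotropic glutamate and GABA-B receptors 0 of 8 passed, led by the GABA-B partner Kctd12b at 0.39 (adjusted p = 0.278). The glycine receptor beta subunit Glrb, the 1 tested gene of its list, had 0.34 (adjusted p = 0.361). Among 5 cation-chloride cotransporters, which set the chloride gradient that GABA-A channels use, 0 passed. The importer Slc12a2 measured 162 ± 9.25 CPM in WT and 144 ± 11.7 CPM in KO, and the exporter Slc12a5 3.50 ± 1.05 and 3.78 ± 1.08 CPM. Of the 3 editing enzymes, 0 passed, and Adarb1, which edits Gria2 transcripts, measured 10.4 ± 1.35 and 10.2 ± 0.804 CPM.

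Because these receptors are best known from neurons, markers of neurons were read beside them. Of 14 pan-neuronal markers 0 were called, with a median log2 fold change of 0.08, or -0.28 without KO replicate 2. In 2 of the 14, chosen after their values were seen, every KO library lay above every WT library, as in 12.3% of all genes. These were Syt1, a calcium sensor of synaptic vesicles, at 0.66 (adjusted p = 0.255) and Map2, a dendritic microtubule protein, at 0.49 (adjusted p = 0.304). Syt1 covers 513 kb of genome and Map2 267 kb. They were at 0.47 and 0.30 without KO replicate 2 (adjusted p = 0.233 for each). The summed level was 262 to 394 CPM in WT and 209, 495 and 352 CPM in KO replicates 1, 2 and 3. The defining marker Tubb3, a neuronal tubulin, measured 27.1, 51.3 and 31.9 CPM in WT and 15.7, 43.0 and 46.7 CPM in KO (log2 -0.06 ± 0.41 SE, adjusted p = 0.953). KO replicate 1 thus had the lowest neuronal sum of all libraries. Its Gria2, Gria4, Gabra2 and Gabra3 levels, picked after their values were seen, were above every WT library. Others, such as Gria1 and Grik3, were below every WT library in KO replicate 1. KO replicate 2 had both the highest neuronal sum and the highest AMPA sum. The part of neurons in the subunit values was not tested.

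Peripheral neuron markers summed to 84.8 to 102 CPM in WT and 82.8, 120 and 107 CPM in KO, with 0 of 10 called and the defining Prph at -0.73 (adjusted p = 0.706). Brain markers were at or near 0, at a sum of 4.79 to 6.19 CPM in WT and 4.18 to 8.34 CPM in KO, with Neurog1 at 0 in all libraries and 4 of 14 tested, none of which was called. In the Schwann cell and glia list Ngfr, the neurotrophin receptor of crest and glial cells, fell by 1.21 on the log2 scale (adjusted p = 0.0194), the 1 call of 10, while the defining Sox10 was at 0.31 (adjusted p = 0.697). That list summed to 176 to 188 CPM in WT and 112 to 141 CPM in KO. The olfactory list, whose marker Omp had at most 7 counts, summed to 98.7 to 113 CPM in WT and 89.4 to 140 CPM in KO. Of its 5 tested genes 1 was called lower, and over all genes 0.436% were. The part of these cells in the subunit values was not tested.

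Of the other tissue lists, muscle markers summed to 365 to 707 CPM in WT, 514 and 302 CPM in KO replicates 1 and 3 and 11450 CPM in KO replicate 2, with 0 of 12 called. Ttn alone held 10160 CPM of the sum in KO replicate 2, and Myh3 held 804 CPM. There the defining Myog, at 27.5 CPM, lay within the WT range of 20.7 to 31.4 CPM. The other muscle markers each lay above every WT library in KO replicate 2. In the mesenchyme list, which summed to 5332 to 7174 CPM in WT and 4125 to 4538 CPM in KO, Col1a1 fell by 1.66 on the log2 scale (adjusted p = 0.0375), the 1 call of 14. It was at -1.70 without KO replicate 2 (adjusted p = 0.0814), where 0 of the list were called lower. Epithelial markers summed to 688 to 827 CPM in WT and 350 to 619 CPM in KO, and 0 of 12 passed with all libraries but 4 were lower without KO replicate 2. Over all genes 0.436% were called lower with all libraries and 1.57% without KO replicate 2. Endothelial markers summed to 252 to 276 and 197 to 228 CPM and macrophage markers to 40.2 to 45.3 and 29.5 to 35.5 CPM, with 0 called in each list. The osteoblast, chondrocyte, red blood cell and melanocyte lists also held 0 calls, with medians of 0.11, -1.63, -0.42 and 0.39. The summed levels of mesenchyme, epithelium, endothelium, macrophages and glia were thus lower in each KO library than in each WT library. Of the glia sum, Ngfr alone held 87.4 to 92.8 CPM in WT and 32.9 to 44.0 CPM in KO. Among 10 glia markers 5 were lower in each KO library than in each WT library, and 1, Cdh19, was higher. Among 14 mesenchyme markers 3 were lower and 2 higher in that way. Over all genes 11.2% were lower and 12.3% higher. The part of these tissues in the subunit values was not tested.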

How the data were processed

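Palatal shelf mRNA was sequenced as 25 bp pairs from stranded libraries, per the labels. The authors deposited raw counts per gene symbol, with TopHat2, SAMtools, HTSeq and mm9 named in the submitters' processing notes. The strand setting is not given in the sources used here, so overlapping genes could share counts. The gene annotation is not stated either. The 5 category lines stayed out of totals. Same-group libraries differed beyond sampling noise (chi-square per degree of freedom 11.0 to 153).

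Subunits, lists and the naming rule were chosen with earlier results of these data known. Groups were compared with edgeR 4.0.16 in R 4.3.3 (trimmed mean of M-values, filterByExpr, robust quasi-likelihood test, no covariate), which left 14233 genes, with Benjamini-Hochberg adjustment over all of them at 0.05. Counts and medians over the subunits take in 4 that are not reported here by name. CPM uses the normalised library sizes. SE is the log2 fold change over the root of F. Named subunits are those past the threshold or with an unadjusted p under 0.05, with all libraries or without KO replicate 2, and the highest per kb of each subfamily in WT. Companion lists give up to 4 calls, otherwise the smallest p. Spans and transcript lengths came from GENCODE M21, where 23006 of 23366 symbols matched. The p-values measure only the spread between the libraries, which the labels call biological replicates. On simulated counts the test was checked for recovery of known changes. Alternatives were other scalings and filters, DESeq2 1.42.0, limma 3.58.1 voom with and without quality weights, the earlier edgeR method, each library left out, both Xist-high libraries left out, the replicate number as a block and removal of the span trend (loess, span 0.5).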

Additional observations from a re-analysis of the deposited data

How the results depend on the processing

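Of 27 tested subunits, 2 were called higher with all libraries, 8 by DESeq2, 7 by voom with quality weights, 7 with the replicate block, 3 with no filter on low counts, 3 without both Xist-high libraries and 0 to 5 when 1 library was left out; the other scalings, filter and methods and the span correction called 2. The count called lower was 0 in each of these. The median log2 fold change ran from 0.39 to 0.87 over the fits without 1 library and from 0.38 to 0.81 over the other alternatives. Companion genes called higher numbered 3, against 5 by DESeq2, 5 with the replicate block, 2 by median-of-ratios scaling, 2 by upper-quartile scaling, 2 by the earlier edgeR method, 2 with the span trend removed, 2 without both Xist-high libraries, 1 by voom and 0 to 3 without 1 library. Companion genes called lower numbered 1, against 4 by DESeq2, 3 by voom with quality weights and 0 to 3 without 1 library. Gabrp, near 0, changed sign in some fits: it had -0.16 with all libraries, 0.23 by voom with quality weights, 0.0585 without both Xist-high libraries, 0.14 without WT replicate 2 and -0.52 to 0.23 over the fits without 1 library. The cause was not tested. Over all genes the counts called higher and lower were 14 and 62 with all libraries, 161 and 325 by DESeq2, 110 and 206 by voom with quality weights, 105 and 196 with the block, 29 and 116 without both Xist-high libraries and 80 and 227 without KO replicate 2. The groups share the replicate numbers 2 and 3, but no label says that a number marks a shared litter, so the main fit used no block. The deviations from the group means correlated at 0.19 for number 2 and -0.14 for number 3. They correlated at 0.20 for WT replicate 3 and KO replicate 2, whose numbers differ. These correlations cannot show whether litters were shared. KO replicate 2 was the shallowest library, where 3 counts equal 0.227 CPM.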
